A study of Homo sapiens with 6 samples.

Results

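The 39 genes described here are interferon-stimulated genes, given as a list of symbols and looked up in an expression table of CAL51 cells. Of the 39, 37 had a row among the 14788 genes of the table, and OAS1 and XAF1 were not analysed here. A filter on low values kept 36 of the 37, which were tested among 13765 genes in all. The gene removed was SAMD9, which lay under 1 CPM (reads of a gene scaled to library size) in 5 of the 6 libraries, on 8 to 20 reads, and counts as barely measured.

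CAL51 cells are a human line of triple-negative breast cancer in common use. Cells labelled KO-1 and KO-2 had been transduced with a CRISPR v2 lentivirus carrying a guide RNA against TREX1, a different guide in each. The control is named in the labels without further description, and the sources used here do not give its vector or guide. A deposited note speaks of several knockout clones without saying which library came from which, so differences between clones and an effect of the guides cannot be told apart. Each of the 3 groups had 2 libraries of polyadenylated RNA, and the labels do not tie them to separate cultures. The p-values below therefore rest on a spread that may be technical alone. TREX1 itself was not analysed here, so the knockout labels were not checked against its RNA. Because these are bulk samples, fewer cells carrying a transcript and less transcript per cell cannot be told apart.

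The libraries held 16802681 and 18440036 reads over genes for KO-1, 13222933 and 20154836 for KO-2, and 22941234 and 25785055 for control, so that 1 read was worth 0.0383 to 0.0767 CPM. Reads were fewest in KO-2 replicate 1, where 61 genes had 0 reads, while 5 to 16 did elsewhere. KO-2 replicate 2 correlated across genes at 0.9917 and 0.9918 with the KO-1 libraries and at 0.988 with its own replicate.

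Markers of cell identity moved too. Of 5 epithelial markers, which mark the tissue of origin, 4 rose with each guide and over both guides, where 14.6% of all genes rose with KO-1 or over both guides and 8.73% with KO-2. Over both guides KRT19 rose by 0.47 on the log2 scale (limma adjusted p = 0.000116), KRT18 by 0.30 (0.00131), KRT8 by 0.27 (0.00123) and EPCAM by 0.20 (0.014), all between log2 CPM 8.03 and 9.93, and CDH1 stood at 0.30 (0.0546). The mesenchymal marker VIM rose by 0.37 (0.00327). ERBB2, the gene of the receptor HER2, had log2 CPM 7.35 to 7.64 and fell over both guides by 0.19 (0.0174), and the endothelial marker CDH5 fell by 0.40 (0.0304), 1 of 3 endothelial markers. These differences are as large as those of several members below, and their part in the members' results was not tested. Without a mean-variance trend limma lost the calls over both guides for KRT8 (0.0514), EPCAM (0.104), ERBB2 (0.0908) and CDH5 (0.0531). It also lost the KO-2 calls of KRT19 (0.054), KRT18 (0.099), KRT8 (0.152), EPCAM (0.18), VIM (0.0921) and CDH5 (0.0856). With KO-1 it lost those of KRT18 (0.0666), EPCAM (0.146), VIM (0.0812) and ERBB2 (0.0591). Over both guides, equal library medians lost ERBB2 (0.0618) and CDH5 (0.0506), and quantile normalization EPCAM (0.0725) and CDH5 (0.0516). CDH1 passed with equal medians (0.0297), quantile normalization (0.0361) and voom weights (0.0468). The calls of KRT8, KRT18 and KRT19 held over both guides without any 1 library. That of VIM was lost without control replicate 2 (0.0692). That of EPCAM was lost without control replicate 2 (0.266), KO-1 replicate 1 (0.053) or KO-1 replicate 2 (0.0681), and that of CDH5 without control replicate 1 (0.334), control replicate 2 (0.0944) or KO-1 replicate 2 (0.0965). That of ERBB2 was lost without control replicate 1 (0.199), control replicate 2 (0.122), KO-1 replicate 1 (0.071) or KO-1 replicate 2 (0.0643). CDH1 passed without KO-2 replicate 1 (0.0279) or KO-2 replicate 2 (0.00645). The leukocyte marker PTPRC had 214 to 401 reads per library and no call (0.15 over both guides, adjusted p = 0.312), while CD14 had 2 to 18 reads. ESR1 and PGR were not analysed here.

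Interferons bind receptors at the cell surface, whose kinases JAK1 and TYK2 activate STAT proteins. STAT2 and IRF9 are part of the ISGF3 complex, which binds the interferon-stimulated response element in promoters and switches on the genes described here. Their products sense foreign nucleic acid, block viral translation, assembly and entry, and feed back on the pathway itself. TREX1 is a nuclease that removes DNA from the cytosol, and its loss is known to trigger this gene programme through the cGAS and STING pathway in many cell types. The comparisons of KO-1 and KO-2 with control therefore address whether the programme was higher in CAL51 cells that received a guide against TREX1.

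The response element was searched in RefSeq promoters of GRCh38.p14, from 250 bases before to 50 after each annotated start, as the letters GAAANNGAAA or, on the other strand, TTTCNNTTTC. Of the 39 members 35 had an entry, and 23 of these (65.7%) held the element, against 1195 of all 27305 genes with an entry (4.38%). The shorter gamma-activated site, TTCNNNGAA, which reads the same on both strands and can overlap a match of the first motif, was found in 11 of the 35 members (31.4%) and in 9.38% of all genes. A match is a run of letters, not a measured binding site. The promoters of OAS3, DTX3L and PARP14 are shown because these were the members with an element whose difference between both guides and control had the smallest p-values. They run from 250 bases before to 5 after the start, 5′ to 3′ on the gene's strand, with the element in capitals.
OAS3, chr12:112938224-112938478, plus strand: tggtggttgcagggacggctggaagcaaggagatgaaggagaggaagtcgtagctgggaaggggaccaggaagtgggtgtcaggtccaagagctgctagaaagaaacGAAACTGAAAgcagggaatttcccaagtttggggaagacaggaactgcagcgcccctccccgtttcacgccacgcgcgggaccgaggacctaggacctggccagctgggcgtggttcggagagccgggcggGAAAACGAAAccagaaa
DTX3L, chr3:122564088-122564342, plus strand: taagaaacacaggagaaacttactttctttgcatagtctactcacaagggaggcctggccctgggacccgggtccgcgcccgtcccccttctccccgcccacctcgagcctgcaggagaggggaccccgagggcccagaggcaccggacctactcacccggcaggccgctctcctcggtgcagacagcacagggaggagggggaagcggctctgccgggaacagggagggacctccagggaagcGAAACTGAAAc
PARP14, chr3:122680589-122680843, plus strand: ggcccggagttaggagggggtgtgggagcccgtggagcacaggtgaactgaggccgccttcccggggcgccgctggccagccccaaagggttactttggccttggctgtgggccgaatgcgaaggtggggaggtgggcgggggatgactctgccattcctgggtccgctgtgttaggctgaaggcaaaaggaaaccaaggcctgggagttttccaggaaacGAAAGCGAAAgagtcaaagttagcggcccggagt
OAS3 thus held the element at 2 places and DTX3L and PARP14 at 1 place each. The element of DTX3L lies across its start, from 122564332 to 122564341 on chromosome 3, and the same 10 bases stand in the promoter of PARP9, which is transcribed the other way.

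The other members with an element that passed the threshold for both guides together are shown as 30 bases around it, on the gene's strand, so that lines with TTTC hold it on the opposite strand.
PARP9, chr3:122564322-122564351, minus strand: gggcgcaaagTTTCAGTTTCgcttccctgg
LGALS3BP, chr17:78979962-78979991, minus strand: gtggtttctgGAAATCGAAAgtagactctt
HERC5, chr4:88457035-88457064, plus strand: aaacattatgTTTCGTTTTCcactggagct
EIF2AK2, chr2:37156967-37156996, minus strand: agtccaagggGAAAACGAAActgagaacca
These stand beside 6 widely used interferon markers that also held the element and did not pass the limma threshold in any comparison.
ISG15, chr1:1013380-1013409, plus strand: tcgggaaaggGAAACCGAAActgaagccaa
IFIT1, chr10:89392510-89392539, plus strand: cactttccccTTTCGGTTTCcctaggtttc
IFIT3, chr10:89332468-89332497, plus strand: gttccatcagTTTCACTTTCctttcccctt
MX1, chr21:41420559-41420588, plus strand: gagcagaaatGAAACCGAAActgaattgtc
IFI6, chr1:27672266-27672295, minus strand: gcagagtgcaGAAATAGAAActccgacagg
IFIH1, chr2:162318686-162318715, minus strand: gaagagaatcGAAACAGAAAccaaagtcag
The capitals of DTX3L and PARP9 are the same element read from either side. The element nearest the start of OAS3, which fell, has the same 10 letters as that of EIF2AK2, which rose, and, read from the other strand, as the one shown for HERC5. Those of ISG15 and MX1 are also alike, and IFIT1 holds the same letters on the other strand. SP100, which had the smallest p of all members, held no element in its entry. ZNFX1, IFIT2, IFITM2 and IRF7 had no entry.

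**Figure D1:**
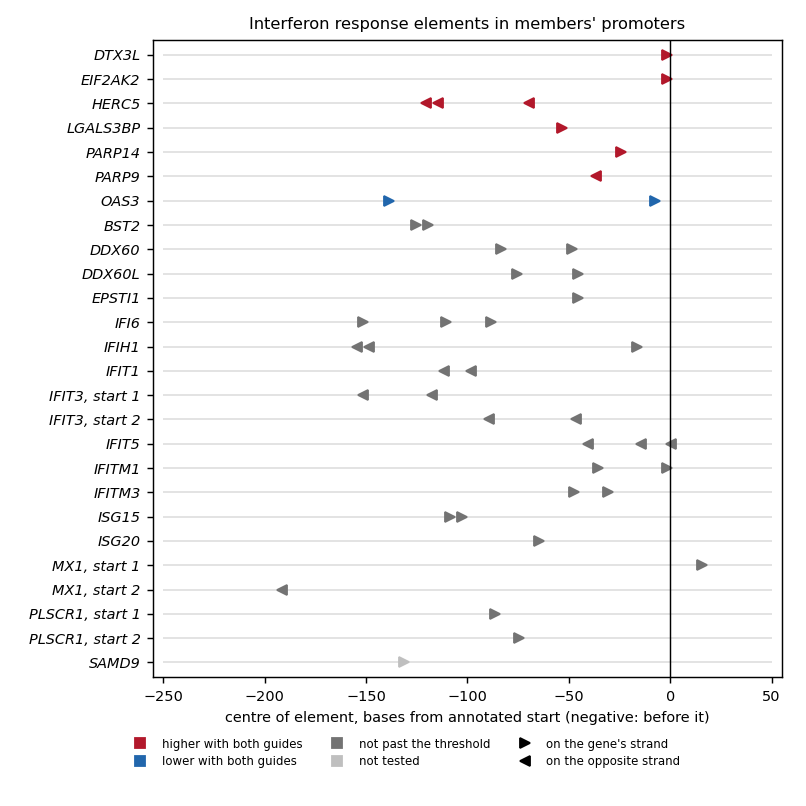
Position of each response element (triangle) in the promoter of 23 members, in bases from the annotated start, with 1 line for each start that held an element. Red marks members higher and blue members lower with both guides than in control. Elements lie before or across the start in most members, those that passed the threshold and those that did not.

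Members with an element did not all move. With both guides, 6 of 22 tested members with the element rose and 1 fell, and 1 of 10 with an entry and no element rose. Among tested genes that are no members, 21% of the 386 with the element rose and 10.6% fell, and of the 10371 without it 14.6% rose and 15.9% fell. These shares were not tested against each other.

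A gene was called at a limma adjusted p below 0.05 over all 13765 genes tested, and log2 fold changes are on the scale of the deposited log2 CPM. With KO-1, 10 of 36 members were called (27.8%), against 29.7% of all genes tested: 8 rose, where 14.6% of all genes did, and 2 fell, where 15.1% did. With KO-2, 6 of 36 were called (16.7%), against 16.9% of all genes: 5 rose and 1 fell, where 8.73% and 8.19% of all genes did. For the mean of both guides the count was again 10 of 36, 8 higher and 2 lower, against 29.6% of all genes, 14.6% higher and 14.9% lower. The share of members called thus lay close to that of all genes in each comparison, while called members were more often higher than lower. The median log2 fold change of the members was 0.14 with KO-1, 0.13 with KO-2 and 0.13 for both guides, and that of all genes was between -0.02 and -0.00.

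The counts moved with single libraries, for members and for all genes alike. With KO-1 the count of members was 4 without control replicate 1, 5 without control replicate 2, 6 without KO-1 replicate 1 and 4 without KO-1 replicate 2. With KO-2 limma called 0 without either control library, with 5 and 7 at an unadjusted p below 0.05 (without control replicate 1 and control replicate 2), 3 without either KO-1 library, 10 without KO-2 replicate 1 and 12 without KO-2 replicate 2. Over both guides it was 2 without control replicate 1, 5 without control replicate 2, 6 without KO-1 replicate 2, 14 without KO-2 replicate 1 and 16 without KO-2 replicate 2. Over all genes the calls for both guides ranged from 1286 to 6075 in the same fits. OAS3 and SP100 kept their calls with KO-1 and over both guides in every one of these fits.

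Single libraries showed the members' direction without a threshold. All 4 knockout libraries lay above both control libraries for 13 of 36 members (36.1%), against 22.3% of all genes tested, and below both for 4 (11.1%), against 24%. For the other 19 members the groups overlapped. The summed level of the 37 members was 1239.8 and 1236.5 CPM in KO-1, 1293.9 and 1217.4 CPM in KO-2, and 1140.5 and 1134.1 CPM in control. Without the 3 IFITM genes, the most abundant per length, it was 887 and 890 CPM in KO-1, 863 and 867 CPM in KO-2, and 786 and 793 CPM in control. Both sums were higher in every knockout library than in either control, but they weigh abundant genes most. Counted gene by gene, 22 and 25 of 36 members lay above the control mean in KO-1, and 20 and 21 in KO-2. The control counts, 23 and 13, are taken against the mean of those same 2 libraries. They must therefore add up to 36 and cannot be set against the knockout counts. The authors' deposited table, at its false discovery rate below 0.05, called 9 of 37 members higher and 2 lower with KO-1 (29.7%), against 29% of its genes, 14.2% higher and 14.8% lower. With KO-2 the authors' deposited table called 5 higher and 1 lower (16.2%), against 16.7% of its genes, 8.59% higher and 8.07% lower, and with KO-2 against KO-1 it called 0 of 37, against 1.49%. In the authors' deposited table IFIT3 was the member called with KO-1 beyond the 10 above.

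**Figure D2:**
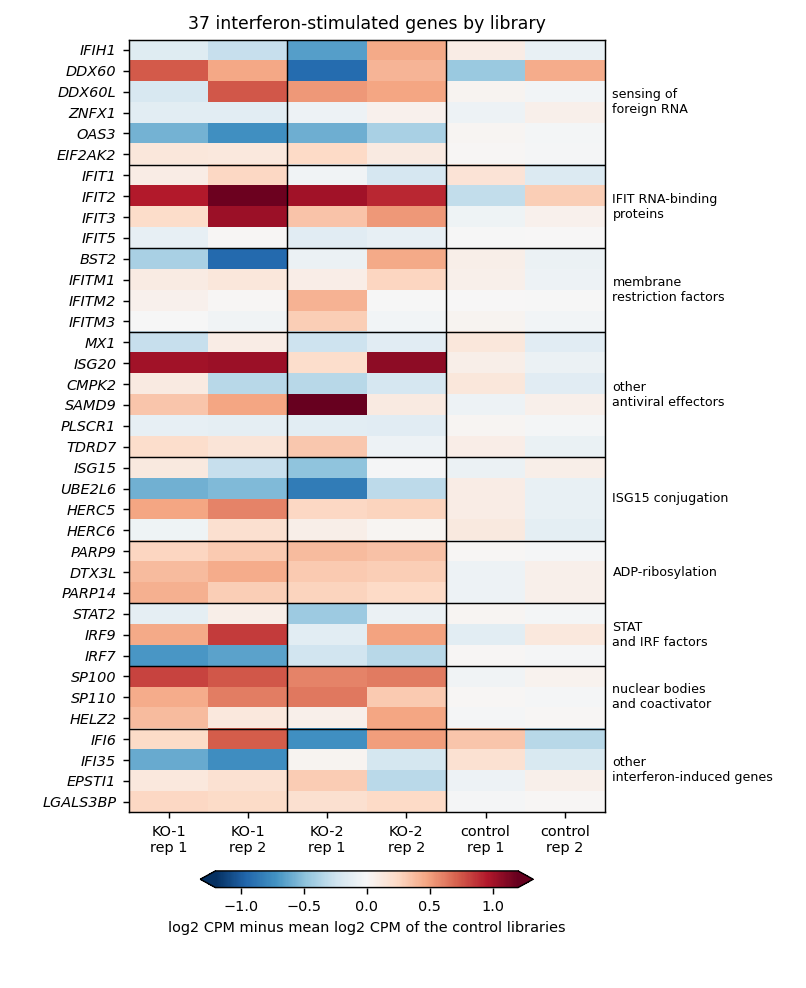
Log2 CPM of the 37 members in each library minus the mean of the 2 control libraries, with members in rows grouped by function and libraries in columns (KO-1, KO-2, control). IFIT2 and SP100 are high in all 4 knockout libraries and OAS3 is low in all 4, while MX1, ISG15 and IFI6 vary within a group.

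**Figure D3:**
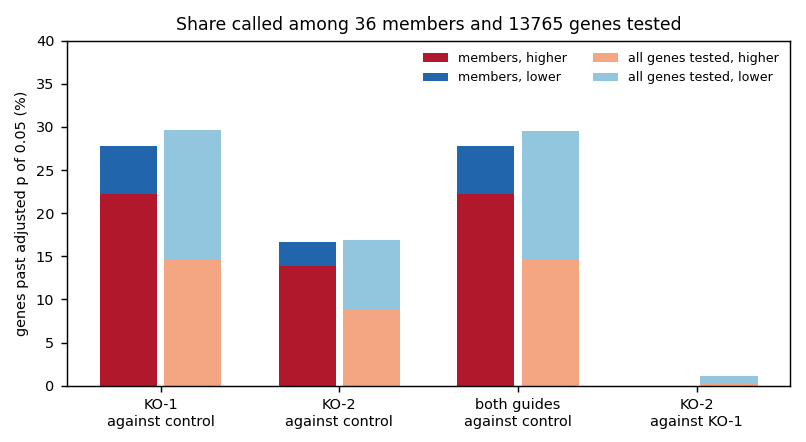
Share of the 36 tested members (dark) and of all 13765 tested genes (light) past an adjusted p of 0.05, higher in red and lower in blue, in the 4 comparisons. The bars of members and of all genes reach 27.8% and 29.7% with KO-1, 16.7% and 16.9% with KO-2, 27.8% and 29.6% for both guides, and 0% and 1.14% between the guides.

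Both comparisons with control use the same 2 control libraries, so their values stand side by side and are no independent repeats. Between the guides themselves, KO-2 against KO-1, 0 of 36 members were called by limma, against 1.14% of all genes (0.334% higher and 0.806% lower), with 1 member at an unadjusted p below 0.05. With voom weights, limma also called 0, with 2 at an unadjusted p below 0.05. Without KO-2 replicate 2 the log2 fold changes were -1.53 for DDX60, -1.22 for IFI6 and -0.42 for STAT2. They were 0.38 for IFITM2 and 0.32 for IFITM3, and all of these values rest on 1 KO-2 library. For these members the KO-2 replicates stood apart from each other: IFI6 had log2 CPM -0.08 and 1.16 in KO-2 against 0.89 and 1.38 in KO-1, and IFITM3 had 8.03 and 7.70 in KO-2 against 7.72 and 7.69 in KO-1.

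All 3 members grouped under ADP-ribosylation rose with each guide, where 14.6% of all genes rose with KO-1 and 8.73% with KO-2. PARP10 and PARP12, interferon-stimulated genes outside the members, were not called with either guide. Over both guides they stood at -0.08 and 0.04 (limma adjusted p = 0.763 and 0.893). PARP9 and DTX3L form a complex that marks proteins with ubiquitin, and PARP14 is a transferase that attaches single ADP-ribose units to proteins. DTX3L had log2 CPM 6.31 and 6.37 in KO-1, 6.24 and 6.22 in KO-2, and 5.87 and 5.99 in control. It rose by 0.41 ± 0.07 with KO-1 (SE, limma adjusted p = 0.00211) and by 0.30 ± 0.07 with KO-2 (adjusted p = 0.019). All 4 knockout libraries lay above both controls.

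PARP9 had log2 CPM 5.69 and 5.75 in KO-1, 5.81 and 5.78 in KO-2, and 5.44 and 5.42 in control. It rose by 0.29 ± 0.08 with KO-1 (adjusted p = 0.0178) and by 0.36 ± 0.08 with KO-2 (adjusted p = 0.011). PARP9 (chr3:122527924-122564784, minus strand) and DTX3L (chr3:122564338-122575203, plus strand) lie head to head and share 217 exonic bases on opposite strands, 2.77% of the exons of PARP9 and 3.7% of those of DTX3L. The sources used here do not give the strand setting of the counting, so reads there could belong to either gene. PARP14, further along the same chromosome from 122680839 to 122730840, had 7.22 and 7.09 in KO-1, 7.07 and 7.03 in KO-2, and 6.74 and 6.85 in control. It rose by 0.36 ± 0.07 with KO-1 (adjusted p = 0.00327) and by 0.25 ± 0.07 with KO-2 (adjusted p = 0.0313), again with no overlap between knockout and control libraries.

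These were small changes, 1.24-fold for PARP14, 1.25-fold for PARP9 and 1.28-fold for DTX3L over both guides, in genes with 730 to 3017 reads per library. For both guides together the calls were lost without control replicate 1, at adjusted p = 0.0679 for PARP9, 0.0736 for DTX3L and 0.0978 for PARP14, and that of PARP9 also without control replicate 2 (0.0791). With KO-1, DTX3L kept its call whichever library was left out, PARP9 lost it without control replicate 1 (0.112), control replicate 2 (0.139), KO-1 replicate 1 (0.0764) or KO-1 replicate 2 (0.135), and PARP14 without control replicate 1 (0.0606) or KO-1 replicate 1 (0.0643). With KO-2 all 3 lost it without control replicate 1 (0.112 for PARP9, 0.227 for DTX3L, 0.292 for PARP14) and control replicate 2 (0.115, 0.0764 and 0.101, in the same order). The KO-2 calls of DTX3L and PARP14 were also lost without KO-1 replicate 1 (0.0526 and 0.0616) or KO-1 replicate 2 (0.0525 and 0.0612), and with only the libraries compared (0.0527 and 0.0615). Without a mean-variance trend the KO-2 calls were lost for PARP9 (0.0649), DTX3L (0.0958) and PARP14 (0.144), and the call of PARP14 over both guides (0.0523).

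Among the antiviral effectors, the IFIT family was led by IFIT2. IFIT proteins bind viral RNA and hold back its translation. IFIT2 (chr10:89302046-89309271, plus strand), which binds AU-rich RNA, had log2 CPM 2.17 and 2.40 in KO-1, 2.23 and 2.13 in KO-2, and 0.93 and 1.52 in control, on 42 to 95 reads per library. It rose by 1.06 ± 0.26 with KO-1 (limma adjusted p = 0.00985) and by 0.96 ± 0.26 with KO-2 (adjusted p = 0.0269), and over both guides it was 2.02-fold higher (adjusted p = 0.00627). The knockout libraries did not overlap with the controls, but the control libraries differed by more than the knockout libraries did. Without control replicate 1 the log2 fold change over both guides was 0.72 (adjusted p = 0.127), with KO-1 0.77 (0.12) and with KO-2 0.66 (0.257). The KO-1 call was also lost without KO-1 replicate 2 (0.0946), and the KO-2 call without control replicate 2 (0.0523), KO-1 replicate 1 (0.0583) or KO-1 replicate 2 (0.0596), without a mean-variance trend (0.0836) and with only the libraries compared (0.0616). IFIT2 shares 8.68% of its exon length with an overlapping transcript on the same strand.

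IFIT3, which stabilises IFIT1 in a complex, had 3.42 and 4.22 in KO-1, 3.54 and 3.72 in KO-2, and 3.14 and 3.25 in control. Its log2 fold change of 0.53 ± 0.19 over both guides did not pass the threshold (adjusted p = 0.0589), although no libraries overlapped. It passed for both guides without KO-1 replicate 1 (0.0104), KO-2 replicate 1 (0.0113) or KO-2 replicate 2 (0.0306), and with KO-1 alone without the same libraries (0.0117, 0.00947 and 0.00984, in the same order). With all libraries it also passed over both guides under equal medians (0.0356), quantile normalization (0.0396), the replicate block (0.0308) and voom (0.0415). IFIT1, which binds the unmodified ends of viral RNA, had 3.12 and 3.27 in KO-1, 2.99 and 2.83 in KO-2, and 3.19 and 2.87 in control, with overlapping groups and a log2 fold change over both guides of 0.02 (adjusted p = 0.935). IFIT5, a further RNA-binding member, stood at -0.08 (adjusted p = 0.517). In all, 1 of 4 IFIT genes rose with each guide, where 14.6% of all genes rose with KO-1 and 8.73% with KO-2.

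ISG20 is an exonuclease that degrades viral RNA. It had log2 CPM 1.36 and 1.38 in KO-1, 0.57 and 1.42 in KO-2, and 0.43 and 0.28 in control, on 18 to 52 reads. It rose with KO-1 by 1.02 ± 0.35 (limma adjusted p = 0.0469), a call lost without control replicate 1 (0.151), control replicate 2 (0.205), KO-1 replicate 1 (0.176) or KO-1 replicate 2 (0.18), without a mean-variance trend (0.0715) and with the replicate block (0.055). With KO-2 its value was 0.64 ± 0.35 (adjusted p = 0.232). KO-2 replicate 1 lay close to control and KO-2 replicate 2 beside KO-1. Without KO-2 replicate 1 it passed the threshold with KO-2 (0.0334) and for both guides (0.00452), as it did over both guides with equal medians (0.0465) and voom (0.0411).

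No other effector passed the threshold with all libraries. MX1, a GTPase that traps viral nucleocapsids, had 0.39 and 0.75 in KO-1, 0.41 and 0.53 in KO-2, and 0.79 and 0.53 in control, on 16 to 38 reads (log2 fold change over both guides -0.14, 95% interval -0.80 to 0.51). CMPK2 (a mitochondrial nucleotide kinase), PLSCR1 (a phospholipid scramblase) and TDRD7 (a tudor-domain protein) stood at -0.19, -0.12 and 0.16 and were not called. Of the 5 other effectors tested, ISG20 was the 1 called, and with KO-1 alone, where 29.7% of all genes were called. TDRD7 passed without KO-2 replicate 2, with KO-2 (0.0412) and over both guides (0.0291).

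The 4 membrane restriction factors gave no call, where 29.7% of all genes were called with KO-1, 16.9% with KO-2 and 29.6% over both guides. BST2, or tetherin, holds budding virus at the cell surface, and the IFITM proteins block fusion of virus with the cell membrane. IFITM3 had log2 CPM 7.72 and 7.69 in KO-1, 8.03 and 7.70 in KO-2, and 7.76 and 7.70 in control, so KO-2 replicate 1 alone stood high. The log2 fold change over both guides was 0.05 (95% interval -0.11 to 0.22, adjusted p = 0.638), against 0.14 for IFITM1 and 0.12 for IFITM2. Without KO-2 replicate 2, IFITM2 and IFITM3 passed the threshold over both guides (limma adjusted p = 0.000684 and 0.00915), and without KO-2 replicate 1 IFITM1 did (0.0306). The IFITM genes are related copies, and how reads that match several of them were counted is not stated, so their values are uncertain. An annotated noncoding RNA on the opposite strand also overlaps 23.7% of the exon length of IFITM3, and the strand setting of the counting is not given. BST2 had -0.08 and -0.63 in KO-1, 0.23 and 0.76 in KO-2, and 0.38 and 0.23 in control, on 10 to 32 reads, and its groups overlapped.

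Per length of annotated exon, the IFITM genes were the most abundant members in all 3 groups. IFITM3 averaged 172 CPM per kilobase in KO-1, 194 in KO-2 and 175 in control, and IFITM2 93.3, 106 and 90.9 in the same groups. In control IFITM1 (37.4), LGALS3BP (25.2) and EIF2AK2 (17.2 CPM per kilobase) came next. STAT2 (15.8) and PARP14 (14.04) followed. The marker MX1 stood at 0.345 in KO-1, 0.318 in KO-2 and 0.368 in control, and SAMD9 was lowest at 0.0749, 0.141 and 0.0529 CPM per kilobase in those groups.

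Sensing of foreign RNA held the clearest fall. OAS3 (hg38 chr12:112938474-112973251, plus strand) is a synthase that, on binding double-stranded RNA, makes the messenger that activates RNase L. It had log2 CPM 4.47 and 4.30 in KO-1, 4.45 and 4.64 in KO-2, and 5.06 and 5.01 in control. It fell with KO-1 (log2 fold change -0.65 ± 0.11, limma adjusted p = 0.00169) and with KO-2 (-0.49 ± 0.11, adjusted p = 0.0146), and over both guides it stood at 0.673 of the control level (adjusted p = 0.00164). All 4 knockout libraries lay below both controls. The call with KO-2 was lost without control replicate 1 (0.145) or control replicate 2 (0.107) and without a mean-variance trend (0.0795), while those with KO-1 and over both guides held without any 1 library.

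EIF2AK2, the kinase PKR that halts translation on sensing double-stranded RNA, had 7.61 and 7.59 in KO-1, 7.71 and 7.58 in KO-2, and 7.48 and 7.46 in control. It rose over both guides by 0.15 ± 0.05 (adjusted p = 0.0482), a call lost without control replicate 1 (0.223), control replicate 2 (0.29), KO-1 replicate 1 (0.14) or KO-1 replicate 2 (0.126). It was also lost with quantile normalization (0.0657), no filter (0.0511), no mean-variance trend (0.162) and the replicate block (0.0602). It was not called with KO-1 (0.13, limma adjusted p = 0.127) or with KO-2 (0.17, adjusted p = 0.0727). With library medians set equal it passed with KO-1 (0.0456) and with KO-2 (0.0364), and with only the libraries compared it passed with KO-1 (0.0151). Leaving out KO-2 replicate 2 gave 0.24 with KO-2. The KO-1 value of 0.13 does not draw on the KO-2 libraries, so leaving these out cannot change it. IFIH1, the sensor MDA5, had 0.93 and 0.79 in KO-1, 0.41 and 1.53 in KO-2, and 1.17 and 0.98 in control, on 16 to 56 reads, with the KO-2 libraries on either side of the controls. DDX60 and DDX60L, helicases linked to sensing through RIG-I, stood at 0.17 and 0.39 over both guides, and ZNFX1, a helicase that senses double-stranded RNA, at -0.07, none of them called. Of the 6 sensing genes tested, 1 rose and 1 fell over both guides, where 14.6% of all genes rose and 14.9% fell.

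ISG15 is a small protein that is joined to others like ubiquitin, by the conjugating enzyme UBE2L6 and, in human cells, the ligase HERC5. HERC5 had log2 CPM 4.32 and 4.45 in KO-1, 4.10 and 4.12 in KO-2, and 3.94 and 3.76 in control. It rose with KO-1 by 0.53 ± 0.12 (limma adjusted p = 0.00766) and over both guides by 0.39 ± 0.11 (adjusted p = 0.0172), and with KO-2 its value was 0.26 ± 0.12 (adjusted p = 0.176). The KO-1 call was lost without control replicate 2 (0.104) or KO-1 replicate 2 (0.0828), and the call over both guides without control replicate 1 (0.0711), control replicate 2 (0.229) or KO-1 replicate 2 (0.0673).

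The modifier itself did not pass the threshold. ISG15 had 3.32 and 2.93 in KO-1, 2.73 and 3.19 in KO-2, and 3.14 and 3.27 in control, with overlapping groups (log2 fold change over both guides -0.16, adjusted p = 0.512). UBE2L6 had 1.11 and 1.15 in KO-1, 0.84 and 1.37 in KO-2, and 1.77 and 1.59 in control, all 4 knockout libraries under both controls, but its -0.56 ± 0.25 over both guides did not pass the threshold (adjusted p = 0.113). It did without KO-2 replicate 2 (0.0276). HERC6, the main ligase for ISG15 in mouse, stood at 0.06 (limma adjusted p = 0.772). Thus 1 of 4 genes of ISG15 conjugation rose over both guides, where 14.6% of all genes did.

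STAT and IRF factors carry the signal to the promoters. IRF7 (chr11:612555-615950, minus strand) drives the production of type I interferons and is itself an interferon-stimulated gene. It had log2 CPM 2.09 and 2.16 in KO-1, 2.57 and 2.46 in KO-2, and 2.81 and 2.78 in control. It fell with KO-1 (log2 fold change -0.67 ± 0.18, limma adjusted p = 0.0182) and over both guides (-0.48 ± 0.16, adjusted p = 0.043), and its value with KO-2 was -0.28 ± 0.18 (adjusted p = 0.324). All 4 knockout libraries lay below both controls, and the difference between the guides was not called (0.39, adjusted p = 0.301). The calls were lost without control replicate 1 (0.135 with KO-1 and 0.263 over both guides), control replicate 2 (0.117 and 0.229), KO-1 replicate 1 (0.0947 and 0.0955) or KO-1 replicate 2 (0.0726 and 0.0788). The call over both guides was also lost with library medians set equal (0.0624), quantile normalization (0.0688) and the replicate block (0.0578).

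STAT2 had 5.64 and 5.82 in KO-1, 5.31 and 5.67 in KO-2, and 5.77 and 5.73 in control (-0.14 over both guides, adjusted p = 0.338). It passed the threshold over both guides without KO-2 replicate 2 (0.00997). IRF9 had 1.22 and 1.60 in KO-1, 0.64 and 1.25 in KO-2, and 0.64 and 0.90 in control (0.41, adjusted p = 0.304). KO-1 libraries lay above control and KO-2 libraries overlapped it. Of the exons of IRF9, 93.5% overlap another annotated protein-coding gene on the same strand, so its reads are uncertain. Of these 3 factors 1 thus fell over both guides and none rose, where 14.9% of all genes fell and 14.6% rose.

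SP100 (chr2:230416201-230545606, plus strand) organises PML nuclear bodies, which restrict the genomes of DNA viruses, and it had the smallest p of all members in each comparison with control. Its log2 CPM was 4.30 and 4.23 in KO-1, 4.08 and 4.11 in KO-2, and 3.44 and 3.53 in control. It rose by 0.78 ± 0.12 with KO-1 (limma adjusted p = 0.000876), by 0.61 ± 0.12 with KO-2 (adjusted p = 0.00772) and 1.62-fold over both guides (adjusted p = 0.000799). The groups did not overlap, and the distance to control was several times the spread within a group. The KO-2 call was lost without control replicate 1 (0.105) or control replicate 2 (0.0601), and the others held without any 1 library. A processed pseudogene on the same strand covers 10% of the exon length of SP100.

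The related nuclear body gene SP110 had 1.19 to 1.52 in the 4 knockout libraries, and 0.89 and 0.87 in control, without overlap. Its 0.50 ± 0.24 over both guides was not called (limma adjusted p = 0.142), but passed without a mean-variance trend (0.0485). HELZ2, a helicase and transcriptional coactivator, stood at 0.26 ± 0.14 (adjusted p = 0.171), and passed without KO-2 replicate 1 over both guides (0.0121) and with KO-2 (0.0216).

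Over both guides 1 of the 3 nuclear body and coactivator genes rose, where 14.6% of all genes did. So did 1 of the 4 other interferon-induced genes, LGALS3BP. It encodes a secreted glycoprotein that binds galectins, and had log2 CPM 6.27 and 6.25 in KO-1, 6.22 and 6.26 in KO-2, and 6.01 and 6.03 in control. The knockout libraries lay close together and above both controls. It rose by 0.24 ± 0.07 with KO-1 (limma adjusted p = 0.0232) and by 0.23 ± 0.06 over both guides (adjusted p = 0.0153), and its value with KO-2 was 0.22 ± 0.07 (adjusted p = 0.0536). The calls were lost without control replicate 1 (0.172 in either), control replicate 2 (0.129 with KO-1 and 0.125 over both guides), KO-1 replicate 1 (0.145 and 0.0631) or KO-1 replicate 2 (0.11 and 0.0529), and without a mean-variance trend (0.0635 and 0.0537). With all libraries the KO-2 value passed in limma with equal medians (0.0278), quantile normalization (0.0483), voom (0.0444) and a mean log2 CPM of at least 2 (0.0453). Without KO-2 replicate 1 that value was 0.24, and without KO-2 replicate 2 it was 0.19.

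IFI6, a small membrane protein that protects cells from virus-induced death, had 0.89 and 1.38 in KO-1, -0.08 and 1.16 in KO-2, and 0.99 and 0.32 in control, on 11 to 46 reads. Its groups overlapped and its 95% interval over both guides ran from -0.66 to 1.02. IFI35 stood at -0.38 and EPSTI1 at 0.07, neither of them called.

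**Figure D4:**
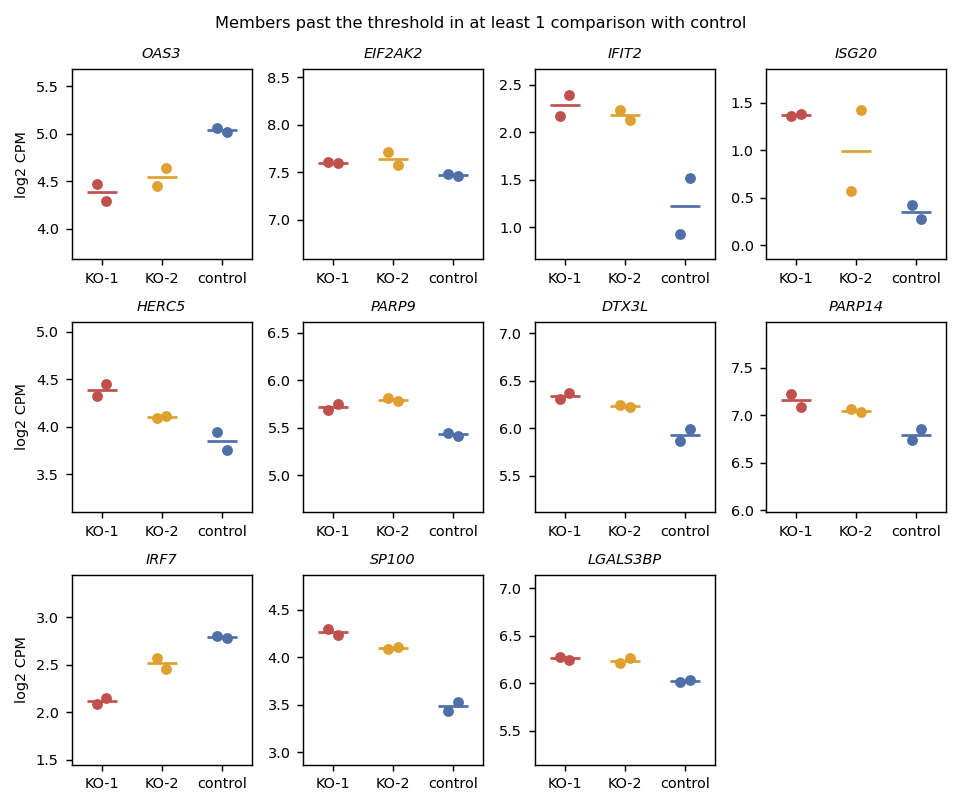
Log2 CPM of the 11 members that passed the threshold in at least 1 comparison with control, with a point per library, a bar at the mean of 2, and KO-1, KO-2 and control from left to right on axes that each span 2 log2 units. In each panel all 4 knockout libraries lie on one side of both controls, and in IFIT2 and ISG20 the libraries of a group are furthest apart.

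**Figure D5:**
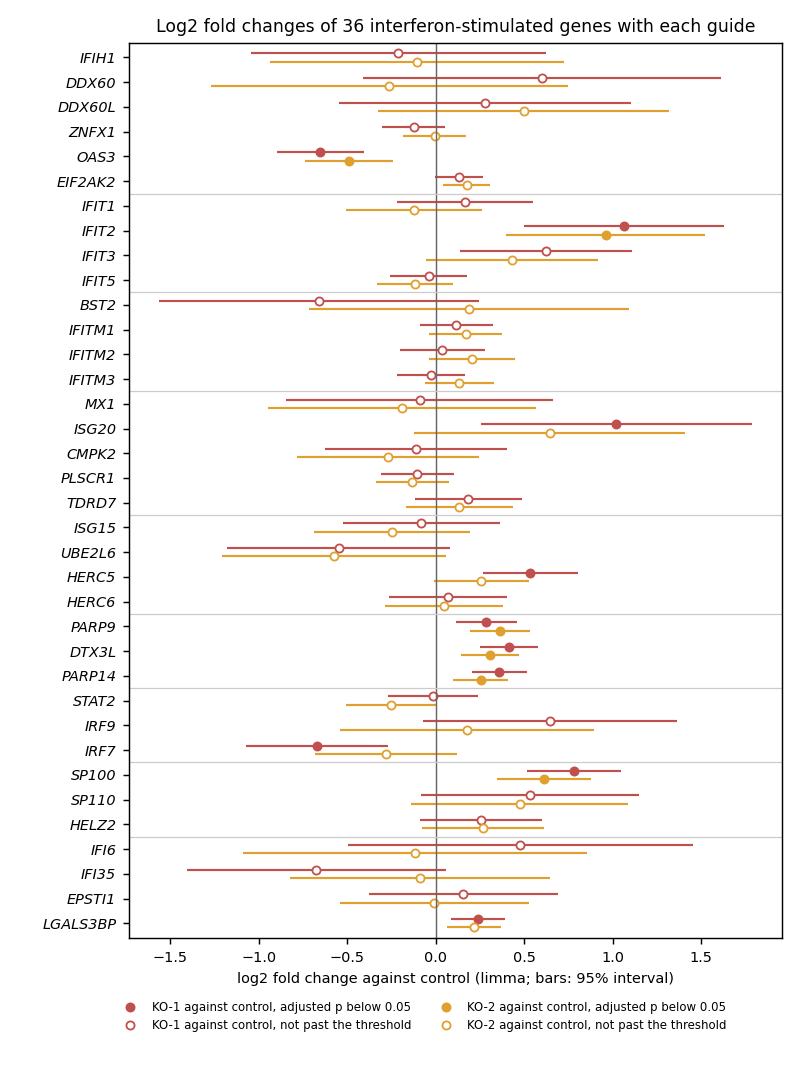
Log2 fold change of the 36 tested members against control with KO-1 (red) and KO-2 (yellow), with 95% intervals from limma and filled points where the adjusted p is below 0.05. The intervals lie below 1 for 27 members with KO-1 and for 31 with KO-2, and are narrow for abundant genes such as PARP14 and wide for genes with few reads such as MX1.

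Genes around the members gave the following counts, in the comparison of both guides with control unless said otherwise, where 14.6% of all genes tested rose and 14.9% fell. The 22 interferon ligands on the list were not analysed here. Of 8 receptor and kinase genes tested, 1 rose and 1 fell (25% called, against 29.6% of all genes). IFNGR1, a subunit of the interferon gamma receptor, rose by 0.33 (limma adjusted p = 0.00819), a call lost without control replicate 2 (0.153). TYK2 had -0.30 and fell (0.00656), a call lost without control replicate 1 (0.0714) or control replicate 2 (0.0942). JAK2 stood at 0.27 and was not called (0.0519). It passed without KO-2 replicate 1 (0.0416) or KO-2 replicate 2 (0.0105).

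Of 6 further transcription factors of the pathway 2 rose and 1 fell (50% called, against 29.6% of all genes). STAT3, which answers to cytokines of the interleukin-6 family, had log2 CPM 8.38 and 8.41 in KO-1, 8.14 and 8.19 in KO-2, and 7.67 and 7.73 in control, and rose by 0.58 ± 0.05 (limma adjusted p = 1.75e-05). IRF1, an early activator induced by interferon gamma, rose by 0.50 (0.0142), a call lost without control replicate 1 (0.158) or control replicate 2 (0.0913). IRF3, which switches on interferon genes, had -0.32 and fell (0.00803), a call lost without control replicate 1 (0.139) or control replicate 2 (0.0665). Of 16 brakes on the pathway, 2 rose and 2 fell (25% called, against 29.6%). PIAS3, an inhibitor of STAT3, had -0.62 and fell (0.000565), as did PIAS4 at -0.29 (0.0144). ATF3, a stress-induced repressor, rose by 0.84 (0.0484). The call of PIAS4 was lost without control replicate 1 (0.151), control replicate 2 (0.127) or KO-1 replicate 2 (0.0622), and that of ATF3 without control replicate 1 (0.226), control replicate 2 (0.188), KO-1 replicate 1 (0.0924) or KO-1 replicate 2 (0.151).

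Of 8 genes of the RNA sensor axis that leads to interferon production 2 fell and none rose (25% called, against 29.6% of all genes). TRAF3, a ubiquitin ligase of the axis, had -0.39 (limma adjusted p = 0.00183), a call lost without control replicate 2 (0.0574). The mitochondrial adaptor MAVS had -0.17 (0.0346), a call lost without control replicate 1 (0.139), control replicate 2 (0.299), KO-1 replicate 1 (0.112) or KO-1 replicate 2 (0.102). IKBKE stood at 0.18 (0.192) and passed without KO-2 replicate 1 (0.0463). RIGI, which encodes the sensor RIG-I, had 1 to 12 reads per library and was not tested.

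Of 23 tested interferon-stimulated genes outside the 39, 5 rose and 2 fell (30.4% called, against 29.6% of all genes). APOL1 rose by 0.62 ± 0.06 (limma adjusted p = 6.13e-05) and its neighbour in the family APOL2 by 0.44 (0.00281). TRIM5, a restriction factor of retroviral capsids, had -0.78 ± 0.11 and fell (0.000519). The calls of all 3 held without any 1 library. Of 8 tested genes on a list of GTPases and related genes induced by interferon gamma, 2 rose (25% called, against 29.6%). With KO-1, 4 of the 8 rose, where 14.6% of all genes did, and with KO-2 1 rose, where 8.73% did. None of them fell in these comparisons. ICAM1, an adhesion molecule, rose by 0.59 (0.000235) over both guides, and its value was 0.94 with KO-1 (3.48e-05) and 0.25 with KO-2 (0.0589). IDO1, which breaks down tryptophan, rose by 0.38 (0.0147), a call lost without control replicate 1 (0.162), control replicate 2 (0.107) or KO-1 replicate 2 (0.0557). GBP2 stood at 0.86 and was not called (0.07), and passed without KO-2 replicate 2 (0.0167). Without a mean-variance trend the calls of TYK2 (0.0622), PIAS4 (0.0509), ATF3 (0.133) and MAVS (0.148) were lost and GBP2 passed (0.0438). That of MAVS was also lost with equal medians (0.107) and the replicate block (0.0505), and JAK2 passed with equal medians (0.0261), quantile normalization (0.0316), voom (0.0413) and a mean log2 CPM of at least 2 (0.0448).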

How the data were processed

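RNA of CAL51 cells was measured by bulk RNA sequencing in 6 libraries, 2 each of KO-1, KO-2 and control. Per the submitters' processing notes, the tools were fastp, STAR 2.7, featureCounts of Subread 2.0 and edgeR, with hg38 as the human build, while the sources used here name neither the annotation nor the strand setting. Per the file headers, the authors deposited log2 CPM per gene and library, and a table of fold changes with p-values and false discovery rates. A deposited note says that the raw file of 1 knockout library was missing and that a merged alignment file stands in for it. Which library of the expression table this concerns was not settled here, nor what was merged. The libraries of each group differed by more than sampling noise (chi-square per degree of freedom 3.01 in KO-1, 8.54 in KO-2 and 3.68 in control). Mouse and single-cell data of the same study were not used here.

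The deposited log2 CPM values hold a prior count, 0.102 CPM in each library. Whole reads could be recovered for 100% of values at a tolerance of 0.01 read. The count of reads gave the depths, and 3 reads correspond to 0.115 to 0.230 CPM. Intervals cover what limma models, not differences between cultures.

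Genes at log2 CPM of at least 0 in at least 2 of the 6 libraries were kept, 13765 of 14788. limma 3.58.1 in R 4.3.3 was fitted to the deposited log2 CPM of all 6 libraries with a mean-variance trend, 3 residual and 8.02 prior degrees of freedom, and Benjamini-Hochberg adjustment over all genes tested. Contrasts set KO-1, KO-2 and the mean of both guides against control, and also the guides against each other. All members are described. Of each other list, the genes with the smallest p over both guides were named, and other genes were chosen after their values were seen. The members, lists and tests were chosen with earlier results of these data known. Lengths and exon overlaps come from GENCODE on hg38, and promoters from RefSeq on GRCh38.p14. Alternatives are given in the closing section.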

Additional observations from a re-analysis of the deposited data

Results flagged for a closer look

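ICAM1, an adhesion molecule induced by interferon gamma and outside the 39 genes, differed between the guides. It had log2 CPM 5.61 and 5.72 in KO-2 and 6.32 and 6.38 in KO-1, with 5.47 and 5.35 in control. The log2 fold change of KO-2 against KO-1 was -0.68 (limma adjusted p = 0.00659), with no overlap between the libraries of the guides. The call was lost without KO-1 replicate 1 (0.248) or KO-1 replicate 2 (0.267), and without a mean-variance trend (0.212). The reason for the difference was not tested.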

How the results depend on the processing

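The called members kept their sign under all alternatives run. Calls kept under every alternative numbered 3 with KO-1 (OAS3, DTX3L and SP100), 2 over both guides (OAS3 and SP100) and 0 with KO-2. Leaving out 1 library gave 4 to 12 members called with KO-1 (10 with all libraries), 0 to 12 with KO-2 (6), 2 to 16 over both guides (10) and 0 to 5 between the guides (0). In these fits the lone library of a group is assumed to vary like the other groups. With KO-2, limma called 1 member without a mean-variance trend and 3 with only the libraries compared. Replicate numbers did not pair the libraries (correlations of replicate differences -0.05 for KO-1 and control, 0.04 for KO-2 and control and -0.04 for KO-2 and KO-1), and the replicate block gave 10, 6, 9 and 0 members called with KO-1, KO-2, both guides and between the guides. A mean log2 CPM of at least 2 left 24 members tested, without IFIT2 and ISG20. Weighted fits with voom on recovered reads, chosen after seeing the data, gave 11, 7, 12 and 0 members in the same order. edgeR and DESeq2, planned as alternatives, were not run.

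Over all genes, calls without a trend numbered 2345 against 4089 with KO-1, 162 against 2329 with KO-2, 2201 against 4068 over both guides and 1 against 157 between the guides. With only the libraries compared they numbered 6259 with KO-1, 1371 with KO-2 and 48 between the guides. Leaving out 1 library gave 1694 to 6255 with KO-1, 362 to 4565 with KO-2, 1286 to 6075 over both guides and 0 to 3170 between the guides. Setting library medians equal changed the split of higher and lower genes over both guides to 2575 and 1598, against 2011 and 2057, with KO-1 to 2535 and 1653, against 2005 and 2084, and with KO-2 to 1575 and 866, against 1201 and 1128. Depth limits the members with few reads: the 95% interval of MX1, on 16 to 38 reads, ran from -0.80 to 0.51 over both guides.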
